A study of Mus musculus with 10 samples.

Results

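The 10 genes described here are Dusp1, Dusp2, Dusp4, Dusp5, Dusp6, Dusp7, Dusp8, Dusp10, Dusp14 and Dusp16, taken by name from 36047 genes with summed transcripts. They encode dual-specificity phosphatases that act on MAP kinases. Their RNA was measured by poly-A sequencing in hepatic stellate cells, which store vitamin A beside the liver sinusoids, from male C57BL/6 mice. The 5 Areg libraries come from quiescent cells cultured for 5 h and then starved for 4 h in the presence of 500 ng/mL recombinant mouse amphiregulin (Areg), which activates the EGF receptor. The 5 control libraries come from quiescent cells taken through the same culture and starvation as controls. Whether a library stands for its own animal or culture is not stated, so all p-values refer to the spread among these libraries, which may be technical. All 10 genes passed the filter on low counts and were among the 13362 genes tested.

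MAP kinases are switched on when a MAP kinase kinase adds phosphate to a threonine and a tyrosine in their activation loop, and the dual-specificity phosphatases remove both. Dusp1, Dusp2, Dusp4 and Dusp5 encode mostly nuclear enzymes that growth factors and stress can induce, and Dusp6 and Dusp7 encode cytoplasmic enzymes that prefer ERK. Dusp5 also prefers ERK, whereas the products of Dusp8, Dusp10 and Dusp16 act mainly on the stress-activated kinases p38 and JNK. Dusp14 encodes a short enzyme without the kinase-binding domain of the others. Because ERK activity raises the transcription of several of these genes, they are widely read as negative feedback on growth factor signalling.

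The libraries held 14365027 to 20057962 estimated counts in the Areg group and 10125184 to 17566891 in the control group. Controls 3 and 4 had the lowest depth. They also stood apart on the first principal component of all tested genes, at 46.6 and 28.6, against -16.5 to -10.6 in Areg libraries and -5.02 to 0.455 in the other controls. The 10 stellate cell markers were all detected, summing to 9634 to 10030 TPM with Areg and 10370 to 11180 TPM in controls, and 3 of them were called lower. Endothelial transcripts were present too. The 6 endothelial markers summed to 2444 to 2542 TPM with Areg and 2459 to 2816 TPM in controls, and none of the 6 was called. The 6 hepatocyte markers summed to 870 to 1082 TPM with Areg and 807 to 1383 TPM in controls, and the 6 macrophage markers to 259 to 300.4 TPM with Areg and 266 to 320 TPM in controls. The 4 cholangiocyte markers, 1 of which (Spp1) was called, summed to 101 to 117 TPM with Areg and 47.5 to 57.3 TPM in controls. Nearly all of that sum was Spp1, with means of 105.5 TPM with Areg and 52 TPM in controls. Epcam, Krt19 and Krt7 had means of 0.27, 1.03 and 0.34 TPM with Areg. In controls they were slightly higher, at 0.72, 1.52 and 0.37 TPM. In such bulk samples, fewer cells of a type and less RNA per cell cannot be told apart, and which cells hold the phosphatase transcripts was not tested.

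Dusp1 was by far the most abundant of the family in these cells. Levels are given in TPM, which are scaled to transcript length and so allow genes to be compared. Dusp1 had 433 ± 13.1 TPM with Areg and 430.2 ± 32.3 TPM in controls (SD, n = 5 each, as for all means below), which was 53.1% of the summed TPM of the family with Areg and 56.0% in controls. Dusp6 followed with 119 ± 4.43 TPM in Areg libraries and 106 ± 6.66 TPM in controls. Dusp5 had 96.3 ± 2.56 TPM with Areg and 62.0 ± 3.49 TPM in controls, and Dusp4 had 61.3 ± 2.90 TPM with Areg and 64.4 ± 5.85 TPM in controls. Dusp10 had 47.5 ± 3.49 TPM with Areg and 44.4 ± 1.97 TPM in controls.

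The order of the family differed between the groups at 1 well-expressed step. Dusp5 lay above Dusp4 in 5 of 5 Areg libraries, with no overlap of their ranges. In controls the ranges of Dusp5 and Dusp4 overlapped, and Dusp5 was above in 2 of 5 libraries. Dusp16 and Dusp7, near 20 TPM, overlapped in both groups, at 20.4 to 24.98 and 17.2 to 26.9 TPM with Areg and at 17.2 to 23.7 and 15.4 to 34.3 TPM in controls. Dusp8 had 5.44 to 8.27 TPM with Areg and 6.39 to 11.4 TPM in controls. Dusp14 and Dusp2 were lowest, with means of 4.05 and 3.30 TPM with Areg and 4.72 and 3.14 TPM in controls.

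**Figure D1:**
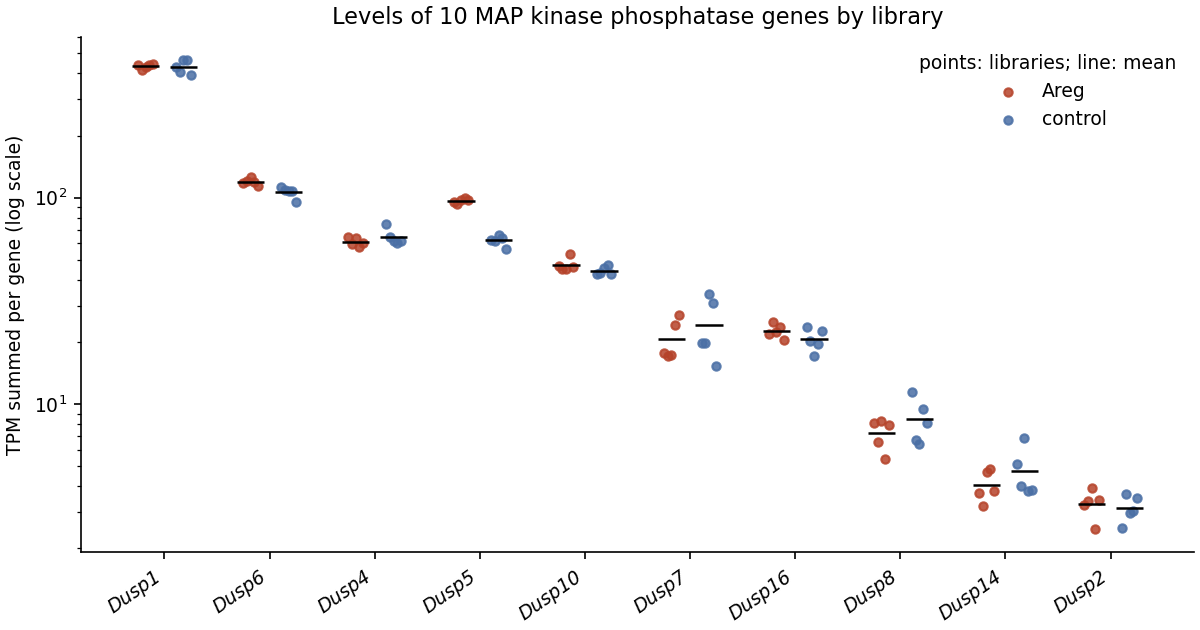
TPM summed per gene (log axis) for the 10 phosphatase genes, ordered by the control mean. Points are libraries, with 5 Areg libraries left of 5 controls, and lines are means. Dusp1 has at least 391 TPM in every library, and Dusp5 is the gene whose groups stand farthest apart, at 92.7 to 99.2 TPM with Areg and 56.5 to 65.8 TPM in controls.

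The question the design poses for this family is which of its members moved after 4 h with Areg. The ERK phosphatase genes Dusp5 and Dusp6 rose, and none of the other 8 genes passed the test. By edgeR's quasi-likelihood test with Benjamini-Hochberg adjustment over all genes tested, 2 of 10 members were called higher and 0 lower at an adjusted p under 0.05. Of all genes tested, 8.34% were called higher, 8.32% lower and 16.7% in either direction. The members' median log2 fold change was 0.07, against -0.01 over all genes tested. For 3 of 10 members the CPM of the groups did not overlap, which held for 14.7% of all genes tested, with Dusp5 and Dusp6 above (7.64% of all genes) and Dusp8 below the controls (7.06%). At an unadjusted edgeR p under 0.05, Dusp8 (0.0314) and Dusp16 (0.0374) would also pass, and 4200 of all genes tested did.

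**Figure D2:**
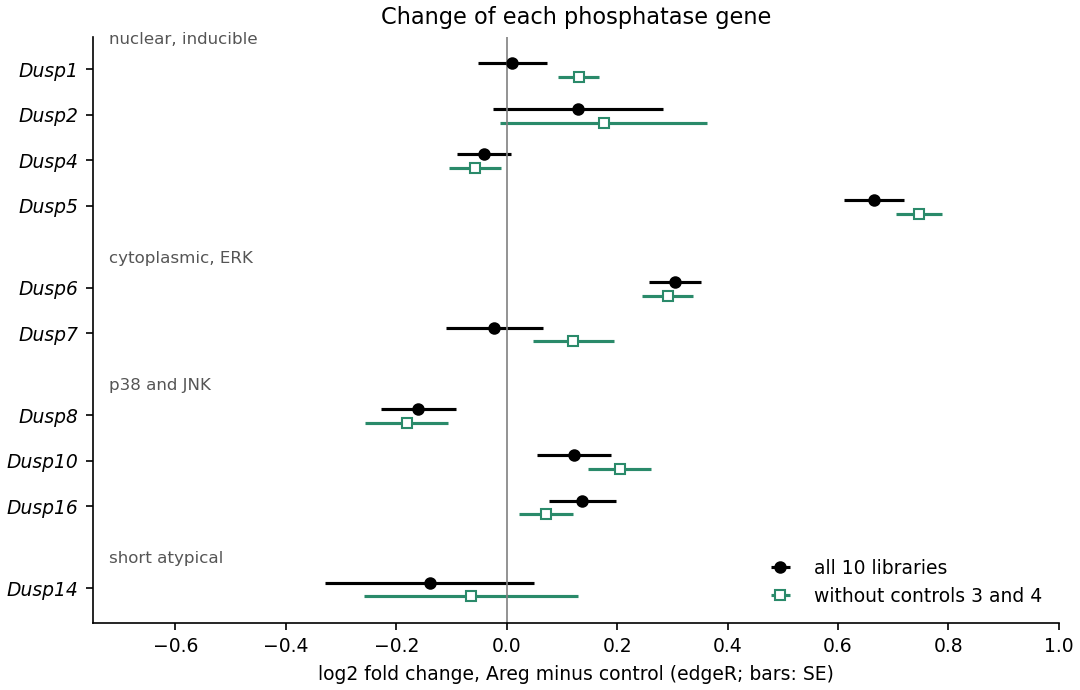
Log2 fold change of each phosphatase gene, Areg minus control, from edgeR with bars of 1 SE, grouped by the known place or preferred kinase of the product. Filled circles use all 10 libraries and open squares leave out controls 3 and 4. Dusp5 (0.67) and Dusp6 (0.30) lie to the right of 0 in both fits, and Dusp1 (0.01 and 0.13) and Dusp10 (0.12 and 0.20) shift between them.

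Dusp5, whose product binds ERK in the nucleus and dephosphorylates it there, changed most. It had 136, 135, 139, 145 and 141 CPM (counts scaled by the TMM library size) in Areg libraries 1 to 5. In controls 1 to 5 it had 82.5, 85.9, 96.9, 93.3 and 80.3 CPM. Every Areg library lay above every control, and the 5 Areg values spread less than the 5 controls. The rise was 1.59-fold (log2 fold change 0.67, SE 0.05, 95% interval 0.55 to 0.78, edgeR adjusted p = 1.06e-06), and Dusp5 ranked 9 of 13362 by p. Leaving out controls 3 and 4, the highest controls for this gene, gave a log2 fold change of 0.75. Dusp5 (ENSMUSG00000034765) lies on chromosome 19, 53529109 to 53542431 of GRCm38 on the plus strand, and an antisense gene overlaps 547 bases of its exons. That antisense gene had no transcript among those counted. No source used here gives the strand setting of the counting, so reads of the antisense gene and of Dusp5 cannot be told apart there. The same holds for 66 exon bases of Dusp8.

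Dusp6 (ENSMUSG00000019960, chromosome 10, 99263231 to 99267489, plus strand) encodes a cytoplasmic ERK phosphatase and is a common readout of ERK activity. It had 181, 184, 186, 182 and 168 CPM in Areg libraries 1 to 5, against 153, 153, 143, 144 and 137 CPM in controls 1 to 5. The groups did not overlap, with Areg library 5 the lowest of its group. The rise was 1.23-fold (log2 fold change 0.30, SE 0.05, 95% interval 0.21 to 0.40, edgeR adjusted p = 0.000528). On the log2(TPM + 1) scale, tested with limma, the log2 fold change was 0.17 (limma adjusted p = 0.0935) and the call was lost. With an offset for transcript length in edgeR it was 0.20 (edgeR adjusted p = 0.0322), and Dusp6 was still called.

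RefSeq promoter windows (GRCm38.p6, 250 bases before to 50 after the transcript start) matched 9 of the 10 genes, the exception being Dusp4. Those of Dusp5 and Dusp6, which rose, of Dusp1, the most abundant member, and of Dusp8, which has the most full CRE matches, are shown because they differ in motifs of growth factor-responsive factors. The windows are chr19:53528895-53529194 on the plus strand for Dusp5, chr10:99262981-99263280 on the plus strand for Dusp6, chr17:26508423-26508722 on the minus strand for Dusp1 and chr7:142095235-142095534 on the minus strand for Dusp8. Capitals mark CArG boxes, the binding motif of serum response factor, and the CRE letters TGACGTCA or TGACG on either strand, and each sequence reads 5′ to 3′.
Dusp5: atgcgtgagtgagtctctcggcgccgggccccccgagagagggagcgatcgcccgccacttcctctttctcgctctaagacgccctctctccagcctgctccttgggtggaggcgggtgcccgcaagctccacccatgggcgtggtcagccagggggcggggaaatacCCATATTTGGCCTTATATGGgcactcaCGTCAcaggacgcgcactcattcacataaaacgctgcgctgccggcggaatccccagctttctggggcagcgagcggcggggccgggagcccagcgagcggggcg
Dusp6: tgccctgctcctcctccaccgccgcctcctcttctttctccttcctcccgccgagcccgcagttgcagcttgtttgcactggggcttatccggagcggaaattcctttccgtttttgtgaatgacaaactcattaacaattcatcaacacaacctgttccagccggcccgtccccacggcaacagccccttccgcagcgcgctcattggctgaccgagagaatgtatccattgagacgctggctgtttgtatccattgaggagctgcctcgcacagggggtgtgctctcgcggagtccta
Dusp1: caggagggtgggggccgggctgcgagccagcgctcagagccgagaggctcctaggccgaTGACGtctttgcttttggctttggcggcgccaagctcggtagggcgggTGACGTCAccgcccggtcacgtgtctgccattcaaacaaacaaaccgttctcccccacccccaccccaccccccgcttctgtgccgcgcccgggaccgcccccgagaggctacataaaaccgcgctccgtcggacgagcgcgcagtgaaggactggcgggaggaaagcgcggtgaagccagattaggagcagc
Dusp8: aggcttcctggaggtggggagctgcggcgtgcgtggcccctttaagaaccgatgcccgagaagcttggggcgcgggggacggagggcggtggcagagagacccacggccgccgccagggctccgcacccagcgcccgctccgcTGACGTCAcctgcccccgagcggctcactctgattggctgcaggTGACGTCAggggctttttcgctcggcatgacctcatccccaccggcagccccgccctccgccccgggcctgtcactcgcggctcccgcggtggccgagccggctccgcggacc

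In the Dusp5 window, 2 CArG boxes abut each other, with first bases at -82 and -72 counted from 0 at the RefSeq transcript start. They are followed by a partial CRE TGACG, read on the minus strand, at -55. That start is base 53529145, whereas the GENCODE M21 start of the counted Dusp5 transcript lies upstream, at 53529109. Both motifs are therefore nearer to the GENCODE start. A CArG box on either strand was found in 1 of the 9 windows, and in 1.63% of 32851 windows of the same length, or 1.27% of the 12990 windows of tested genes. In the Dusp1 window, a full CRE (TGACGTCA) lies at -143, and in the Dusp8 window full CREs lie at -107 and -63. Full CREs were found in 2 of 9 windows and in 1.79% of all windows, or 2.91% of those of tested genes. The partial CRE TGACG, which every full CRE contains, was found in 5 of 9 windows, in 20.8% of all windows and in 29.7% of those of tested genes. The Dusp6 window held neither, and none of the 9 windows held the AP-1 letters TGANTCA, which 7.81% of all windows and 5.62% of those of tested genes hold. The letters CCGGAA, a longer form of the ETS core GGAA, were found in 1 of 9 windows, that of Dusp14. The RefSeq start of Dusp14 lies 1277 bases upstream of the GENCODE M21 start of its transcript with the most counts. CCGGAA was found in 14.9% of all windows and in 26.0% of those of tested genes. GGAA alone was not searched for. The GC box letters GGGCGG were found in 8 of 9 windows, all but that of Dusp6, in 35.7% of all windows and in 60.1% of those of tested genes. These matches describe letters in the windows and show no binding.

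Dusp1, an immediate-early gene whose product acts on p38 and JNK as well as ERK, did not pass the test. It had 419, 399, 406, 422 and 426 CPM in Areg libraries 1 to 5. In controls 1 to 5 it had 383, 382, 468, 453 and 373 CPM. Controls 3 and 4 lay above, and the other 3 controls below, every Areg library. The log2 fold change was 0.01 (SE 0.06, 95% interval -0.12 to 0.14, edgeR adjusted p = 0.936). Without controls 3 and 4 it was 0.13 (SE 0.04, edgeR adjusted p = 0.0190), so the call for Dusp1 turned on those 2 libraries.

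Of the other nuclear members, Dusp4, whose product acts on ERK and JNK, had 94.2 to 104 CPM with Areg and 97.4 to 110.05 CPM in controls. Its log2 fold change was -0.04 (95% interval -0.14 to 0.06, edgeR adjusted p = 0.614), so the interval lay below the estimate for Dusp6. Dusp2, best known from activated immune cells, was near the floor of detection. It had 32 to 58 counts per library with Areg and 24 to 38 in controls, with 2.70 ± 0.259 CPM with Areg and 2.49 ± 0.264 CPM in controls. The log2 fold change of Dusp2 was 0.13 with a wide 95% interval of -0.20 to 0.46 (edgeR adjusted p = 0.611), so a rise of the size seen for Dusp6 was not excluded.

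**Figure D3:**
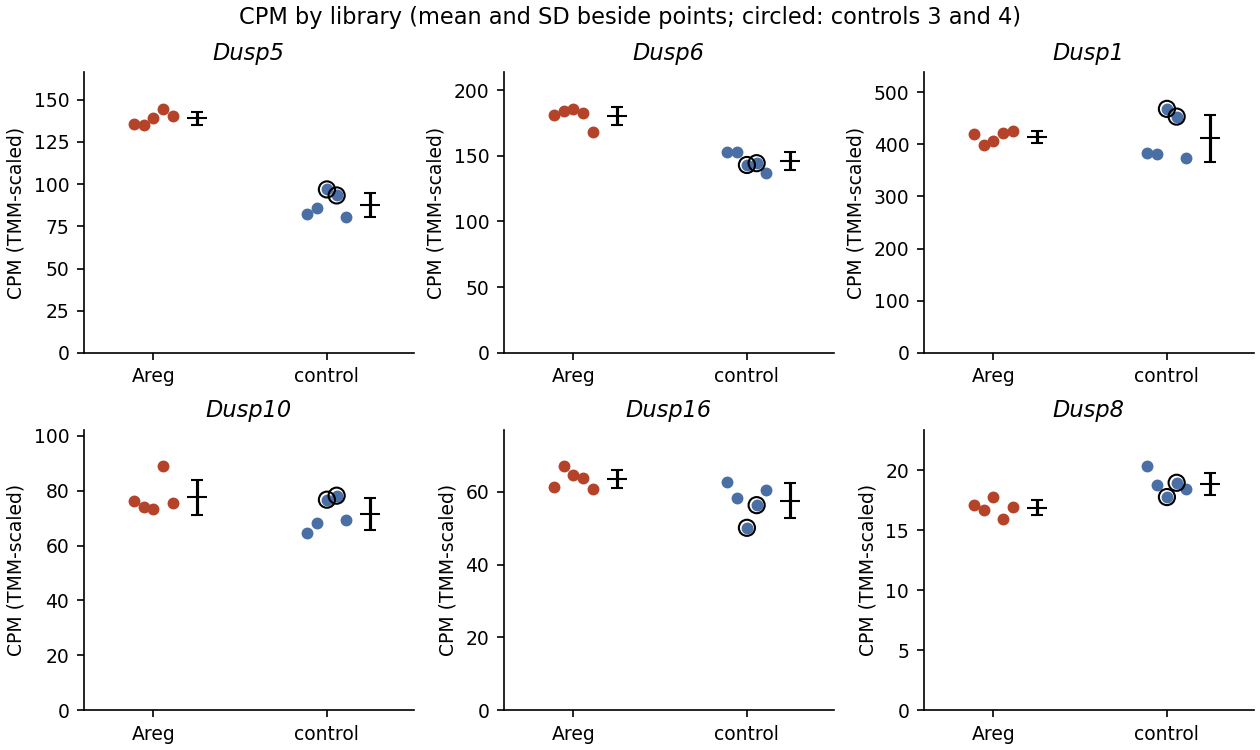
TMM-scaled CPM by library for 6 phosphatase genes, Areg left of control, each axis starting at 0. Points are libraries, bars beside them give mean and SD, and circles mark controls 3 and 4. For Dusp1 the circled controls (468 and 453 CPM) lie above and the other controls (373 to 383 CPM) below the Areg libraries, while for Dusp5 every Areg library lies above every control.

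Dusp7, the other cytoplasmic ERK phosphatase gene, did not pass the test. It had 28.4, 26.8, 26.1, 31.2 and 30.2 CPM in Areg libraries, against 28.3, 25.2, 34.4, 32.6 and 25.2 CPM in controls. Its log2 fold change was -0.02 (95% interval -0.21 to 0.16, edgeR adjusted p = 0.896), with controls 3 and 4 again the highest. Without controls 3 and 4 it was 0.12 (edgeR adjusted p = 0.296), and it passed under 1 of 24 alternatives.

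Among the p38 and JNK phosphatase genes, Dusp10 was the most abundant. It had 76.1, 74.1, 73.2, 88.95 and 75.6 CPM in Areg libraries and 64.6, 68.3, 76.7, 78.2 and 69.2 CPM in controls. Areg library 4 was the highest of all, and controls 3 and 4 were the highest controls. Its log2 fold change was 0.12 (SE 0.07, 95% interval -0.02 to 0.26, edgeR adjusted p = 0.222). Without controls 3 and 4 it was 0.20 (SE 0.06, edgeR adjusted p = 0.0182), and Dusp10 was then called.

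Dusp16, whose product shuttles between nucleus and cytoplasm and prefers JNK and p38, had 61.3, 67.1, 64.5, 63.7 and 60.8 CPM in Areg libraries and 62.6, 58.4, 50.1, 56.3 and 60.5 CPM in controls. Here control 3 was the lowest library, the opposite of its place for Dusp1. The log2 fold change was 0.14 (edgeR adjusted p = 0.132) and 0.07 without controls 3 and 4. Dusp8 had 17.1, 16.7, 17.7, 15.95 and 16.9 CPM in Areg libraries and 20.4, 18.8, 17.8, 19.0 and 18.4 CPM in controls. The groups did not overlap, but the highest Areg library (17.745 CPM) nearly met the lowest control (17.772 CPM). The log2 fold change of Dusp8 was -0.16 (SE 0.07, edgeR adjusted p = 0.118), and it was 0.05 once a trend in transcript length and GC content was removed from each library. Dusp14 had 2.76 ± 0.560 CPM with Areg and 3.05 ± 0.755 CPM in controls, at 42 to 60 counts per library with Areg and 25 to 54 in controls (log2 fold change -0.14, 95% interval -0.54 to 0.26, edgeR adjusted p = 0.657).

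In the fit that left out controls 3 and 4, 4 of 10 members were called higher, namely Dusp1, Dusp5, Dusp6 and Dusp10. Of all genes tested in that fit, 15.9% were called in either direction and 8.38% were called higher.

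Between nuclear and cytoplasmic members, 1 gene of each class rose, Dusp5 and Dusp6, where 8.34% of all genes tested were called higher. The 4 nuclear genes had a mean log2 fold change of 0.19, from -0.04 to 0.67, and the 2 cytoplasmic genes 0.14, from -0.02 to 0.30. The difference of the class means was 0.05, and it was 0.18 with an offset for transcript length. The nuclear minus cytoplasmic difference of mean log2 TPM was -0.10 to 0.28 in Areg libraries and -0.32 to 0.29 in controls, so the groups overlapped. The summed level of the nuclear genes was 594 ± 15.2 TPM with Areg and 560 ± 34.6 TPM in controls, most of it Dusp1. The cytoplasmic genes summed to 136 to 143 TPM with Areg and 110.4 to 142 TPM in controls.

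The genes that rose were both ERK-selective. Dusp5, Dusp6 and Dusp7 had a mean log2 fold change of 0.32, from -0.02 to 0.67, with 2 of 3 called higher. Dusp8, Dusp10 and Dusp16 had a mean of 0.03, from -0.16 to 0.14, with 0 of 3 called. Of all genes tested, 8.34% were called higher and 16.7% in either direction, so 0 of 3 called is not unusual. In the fit that left out controls 3 and 4, Dusp10 was called higher as well (log2 fold change 0.20, edgeR adjusted p = 0.0182). Dusp7 (-0.02) lay below Dusp10 (0.12) and Dusp16 (0.14), so the classes overlapped by gene. The difference of the class means, 0.28, is a description of members chosen with earlier results known and carries no test. In each library, the mean log2 CPM of the ERK-selective genes minus that of the p38 and JNK genes was 1.00 to 1.07 with Areg and 0.61 to 0.93 in controls, without overlap. On the TPM scale that difference was 1.52 to 1.79 with Areg and 1.13 to 1.86 in controls, and control 3 was the highest library of all. The ERK-selective genes summed to 236 ± 5.37 TPM with Areg and 192 ± 15.6 TPM in controls, with no overlap, while the p38 and JNK genes summed to 77.4 ± 3.13 TPM with Areg and 73.4 ± 3.72 TPM in controls, with overlap. Between the 2 genes that rose, log2 CPM of Dusp5 minus that of Dusp6 was -0.45 to -0.26 with Areg and -0.89 to -0.56 in controls, so it was higher in every Areg library than in any control.

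The transcript estimates showed which forms carried these genes. Dusp4 and Dusp5 each had 1 transcript, and Dusp10 counts came almost entirely from Dusp10-201 (mean 99.9% with Areg and 99.95% in controls). Dusp1 counts were split between Dusp1-206 and Dusp1-202, protein-coding forms whose annotated first exons differ. Dusp1-206 took 58.0, 61.0, 55.4, 66.6 and 63.9% in Areg libraries 1 to 5 and 51.9, 51.7, 48.8, 56.8 and 54.9% in controls 1 to 5. Dusp1-202 took 30.2 ± 4.603% with Areg and 38.7 ± 3.42% in controls. The shares of each form overlapped between the groups. For the Dusp1-206 counts alone, the log2 fold change was 0.22 (edgeR adjusted p = 0.0625). These shares are kallisto's estimates and were not tested themselves.

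Some minor transcripts of the cytoplasmic members, short ones among them, stood out in controls 3 and 4. Dusp6-203, an 876-base non-coding form, took 1.88 to 3.62% of Dusp6 counts with Areg. In controls it took 3.50, 3.77, 8.999, 8.07 and 3.70%, and controls 3 and 4 were the highest. Dusp6-204, a 2359-base protein-coding form, was also highest there, at 4.14 and 3.6%. It took 0 to 1.51% in the other controls and 0 to 1.38% with Areg. Dusp7-203, a 658-base form, took 0 to 4.06% of Dusp7 counts with Areg and 16.5 and 14.7% in controls 3 and 4, against 0 to 5.31% in the other controls. A short form raises TPM more than counts. Dusp7 had 34.3 and 31.0 TPM in controls 3 and 4 against 15.4 to 19.8 TPM in the other controls. Areg libraries 4 and 5 had 24.3 and 26.9 TPM, with Dusp7-203 at 3.79 and 4.06%, against 17.2 to 17.7 TPM in Areg libraries 1 to 3. In CPM too, controls 3 and 4 were the highest for Dusp7, at 34.4 and 32.6 CPM. Whether the short form accounts for these levels was not tested. With the main transcripts alone, Dusp6 had a log2 fold change of 0.37 (edgeR adjusted p = 0.000421) and Dusp7 of 0.06 (edgeR adjusted p = 0.630).

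**Figure D4:**
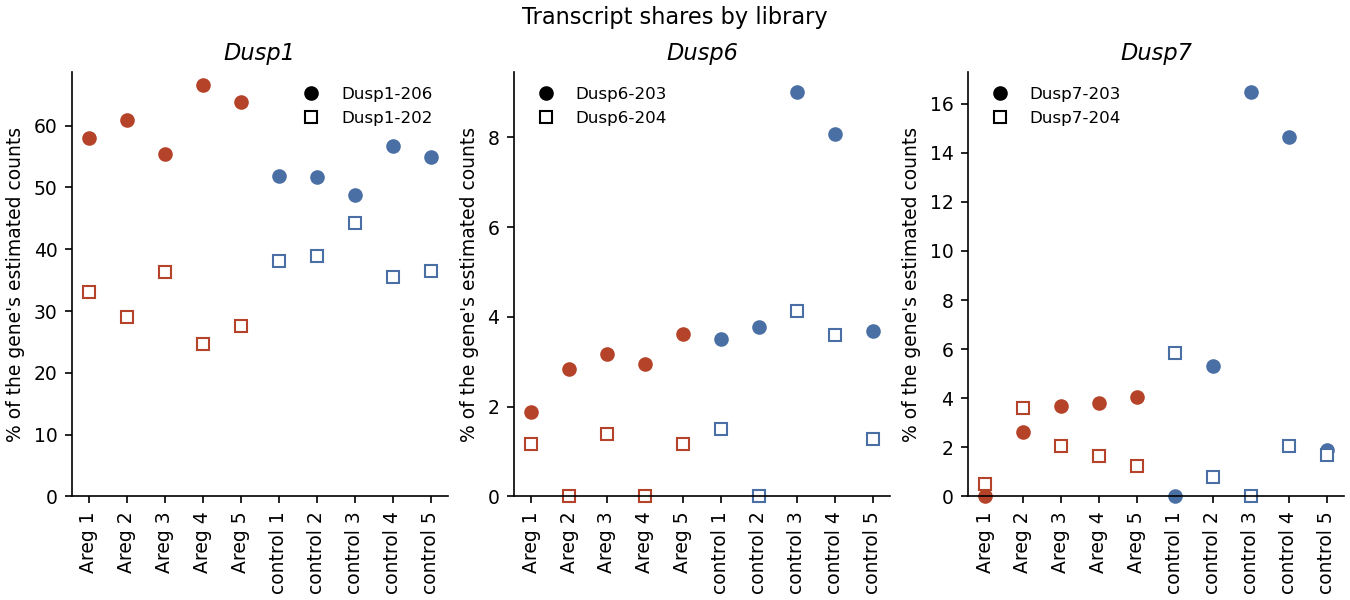
Share of the gene's estimated counts assigned to named transcripts in each library (percent), Areg libraries in red at the left and controls in blue at the right. Filled circles and open squares are different transcripts of the gene named above each panel. The short forms Dusp6-203 and Dusp7-203 are highest in controls 3 and 4, at 8.999 and 8.07% and at 16.5 and 14.7%.

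Beyond the members, 18 further genes of dual-specificity and ERK tyrosine phosphatases were listed, 10 of which were tested. Their median log2 fold change was -0.12, with none called higher, 1 lower and 9 not called. For this list and those below, the shares over all genes tested were 8.34% higher and 8.32% lower. Dusp3, which encodes a small phosphatase of ERK and JNK, had 88.2 ± 4.49 CPM with Areg and 98.05 ± 3.49 CPM in controls (log2 fold change -0.15, edgeR adjusted p = 0.0438), a call lost under 14 of 23 alternatives. Dusp23 had 6.65 to 18.2 CPM with Areg. Its controls were widely spread, with 62.2 and 50.2 CPM for controls 3 and 4, while the others had 7.15 to 14.8 CPM. It was not called (log2 fold change -1.48, edgeR adjusted p = 0.194). Dusp9, the third cytoplasmic ERK phosphatase gene, Dusp28 and Styx had edgeR adjusted p-values of 0.363, 0.299 and 0.330.

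In the ERK cascade itself, 22 genes were tested, and 5 fell, 1 rose and 16 were not called (median log2 fold change -0.09). Ksr1, a scaffold of the cascade, fell to 16.4 ± 1.16 CPM with Areg, against 23.8 ± 2.44 CPM in controls (log2 fold change -0.53, edgeR adjusted p = 0.000570). Mknk2, a kinase downstream of ERK, fell with a log2 fold change of -0.37. Mapk3, which encodes ERK1, had 131 ± 6.33 CPM with Areg and 158 ± 20.2 CPM in controls (log2 fold change -0.26, edgeR adjusted p = 0.0201). Leaving out controls 3 and 4, the log2 fold change of Mapk3 was -0.13 (edgeR adjusted p = 0.0484), and its call was lost under 6 of 23 alternatives. Araf had a log2 fold change of -0.19, lost under 10 of 23 alternatives. The gene that rose, Rps6ka3, an ERK-activated kinase, was chosen after its values were seen (log2 fold change 0.24, and 0.13 without controls 3 and 4).

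The p38 and JNK cascades had 17 tested genes, of which 1 rose, 1 fell and 15 were not called (median log2 fold change -0.01). Over all genes tested, 16.7% were called in either direction. Map2k4, a kinase that activates JNK, had 96.6 ± 5.68 CPM with Areg and 81.3 ± 5.29 CPM in controls (log2 fold change 0.25, edgeR adjusted p = 0.00724), a call lost on both TPM scales and with the length offset. Map3k11 had a log2 fold change of -0.28 (edgeR adjusted p = 0.0254). That of Map3k11 was -0.12 without controls 3 and 4, and the call was lost. Map3k5, Map3k4 and Mapk9 had edgeR adjusted p-values of 0.0510, 0.0529 and 0.0541.

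Genes outside the family that are read as ERK output had a median log2 fold change of 0.16. Of the 11 tested, 5 rose, 0 fell and 6 were not called. Spry4, a Sprouty feedback inhibitor, had 64.7 ± 1.39 CPM with Areg and 49.8 ± 2.82 CPM in controls (log2 fold change 0.38, edgeR adjusted p = 0.000256). Spry2 rose by a log2 fold change of 0.45 and the transcription factor gene Egr1 by 0.37. Epha2 (0.28) and Phlda1 (0.31) rose with overlap between the groups, and these calls were lost under 5 of 23 alternatives for Epha2 and 9 of 23 for Phlda1. In the fit that left out controls 3 and 4, 6 of 11 were called higher, against 8.38% of all genes tested in that fit.

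**Figure D5:**
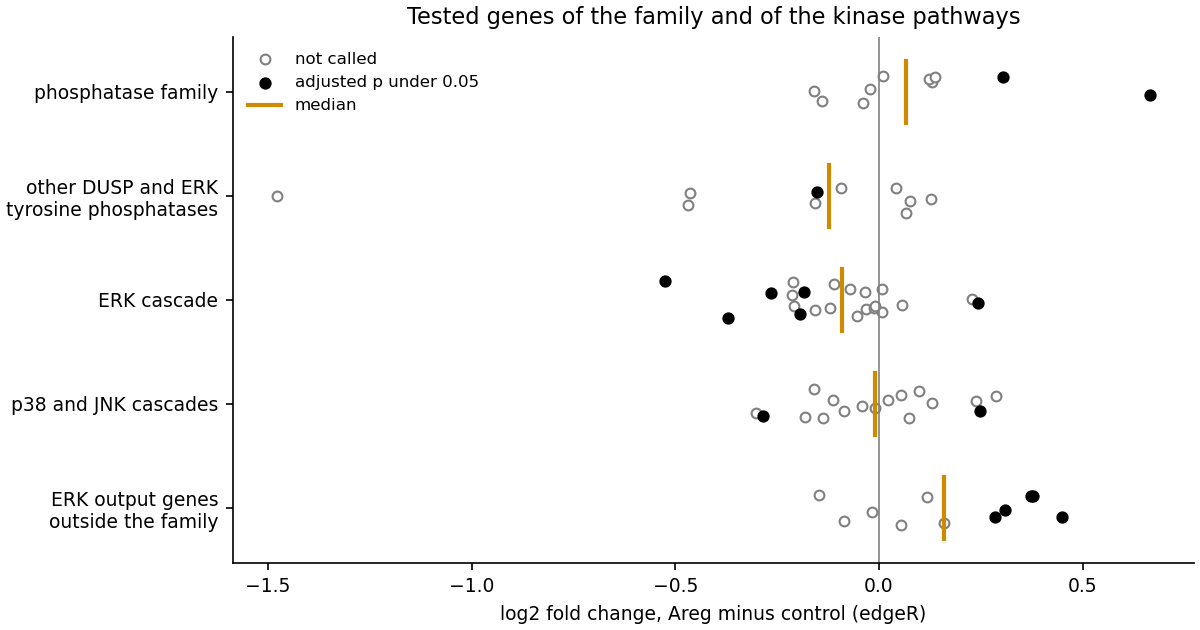
Log2 fold change of every tested gene, Areg minus control, in the phosphatase family and in 4 lists of related genes. Filled points passed an edgeR adjusted p under 0.05, open points did not, and the line marks the median of each list. Dusp5 (0.67) is the highest point of the plot, and 5 of 6 called ERK cascade genes lie below 0.

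The genes whose pattern over the 10 libraries was most like that of Dusp5, by Pearson correlation of log2 CPM among 8492 genes averaging 10 CPM or more, were Angptl4 (r = 0.986), Lif (0.984) and Il11 (0.982). Angptl4 encodes a secreted inhibitor of lipoprotein lipase, and Lif and Il11 cytokines of the interleukin-6 family. Those most like Dusp6 were Stard13 (r = 0.974), Tnc (0.970) and Hdc (0.968). Tnc encodes the matrix protein tenascin C, and Hdc encodes histidine decarboxylase. All 6 were called higher with Areg, with log2 fold changes of 0.41 to 0.73, so part of each likeness is the shared difference between the groups. The 2 sets had no gene in common.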

How the data were processed

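The series holds 10 poly-A libraries, 5 with Areg and 5 controls by the labels. The deposited files hold estimated counts per transcript (expected counts that need not be whole), and TPM that the authors' kallisto run scaled to length and to 1000000 per library, with transcript and effective lengths, per the file headers. GRCm38.p6, bcl2fastq 2.19, kallisto 0.44.0 and DESeq2 are listed per the submitters' processing notes, without their roles. The transcript set and strand setting are not given here.

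GENCODE M21 matched 116816 of 118489 transcripts. Estimated counts were summed per gene and rounded, and low genes were removed with filterByExpr (count of at least 10, total of at least 15). The groups were compared with edgeR 4.0.16 in R 4.3.3 (quasi-likelihood test, TMM, robust, no covariates), with Benjamini-Hochberg adjustment over 13362 genes and a threshold of 0.05. Intervals are 95% intervals from the fit. The fit was tested on simulated counts, drawn independently for each gene and library with the spread that the fit itself estimated. Those counts hold no shift shared by controls 3 and 4, so they do not bear on calls that turn on these libraries. No 2 libraries of a group agreed within sampling noise (chi-square over degrees of freedom, 3.77 to 49.7). The members and lists were chosen with earlier results of these data known. All members were named, then the 5 tested genes of each related list with the smallest p, then the 3 genes most like each called member. A gene that the rule names is not reported here. Promoter windows came from RefSeq. Alternatives were other normalizations, filters, DESeq2 1.42.0, limma 3.58.1 (voom, and log2(TPM + 1) or log2(TPM + 0.1)), a length offset, a replicate block, main transcripts alone, and libraries left out. Removal of a length and GC trend was added after the data had been seen.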

Additional observations from a re-analysis of the deposited data

Results flagged for a closer look

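In 20 sets of 5 libraries (10 genes in each of 2 groups), 3 held a library far from its group, where chance flags about 1 in 20. Dusp10 had 88.95 CPM in Areg library 4 and 73.2 to 76.1 CPM in the other Areg libraries. Without Areg library 4 its log2 fold change was 0.07. Dusp6 had 168 CPM in Areg library 5 and 181 to 186 CPM in the other Areg libraries. In control 1, Dusp4 reached 110.0 CPM, while the other controls lay between 97.4 and 101 CPM.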

How the results depend on the processing

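Dusp5 was called higher under all 24 alternatives (log2 fold change 0.63 to 0.82) and Dusp6 under 22 (0.17 to 0.37). The exceptions were both TPM scales, where 1 member was called higher. There, 6.41% and 6.5% of all genes tested were called in either direction. Without controls 3 and 4, 4 members were called, beside 15.9% of all genes tested. With the length and GC trend removed as well, 5 members were called, beside 13.4%. With each library left out in turn, 2 were called higher and 0 lower every time, beside 10.2 to 17.4% of all genes tested. The total number of called genes was 2226 (1114 higher, 1112 lower). It was 856 (322 and 534, or 37.6% higher) on the log2(TPM + 1) scale, 868 (325 and 543) on the log2(TPM + 0.1) scale and 1149 (617 and 532) with the length offset. With the trend removed, 1124 were higher and 698 lower (61.7% higher). Leaving out 1 library gave 1364 to 2314 called genes, 686 to 1181 higher and 678 to 1150 lower, with the lowest values without Areg replicate 2. The nuclear minus cytoplasmic difference was 0.16, 0.17 and 0.18 on the 2 TPM scales and with the length offset, against 0.05. The ERK-selective minus stress-kinase difference was 0.19 on the log2(TPM + 1) scale and 0.19 with the length offset, against 0.28. The cause of these shifts was not tested.

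Signs near 0 turned for members that were not called. Dusp1 was at -0.0046 with upper quartile factors and between -0.0231 and 0.0636 with 1 library left out. Dusp4 was at 0.10 with the trend removed and 0.0181 without controls 3 and 4 as well. Dusp7 was at 0.16 with the trend removed, 0.12 without controls 3 and 4, 0.22 with both (called) and 0.0570 for the main transcript, and between -0.0704 and 0.0441 with 1 library left out. Dusp8 was at 0.0453 with the trend removed. Outside the members, Map3k11, called lower with all 10 libraries (-0.28), was at 0.0247 with both and was then not called. Map3k5, which was not called (0.24), was at -0.0343 and -0.0399 on the TPM scales and -0.0145 with the length offset. Whether the numbers shared by the groups pair the libraries cannot be decided here. Same-numbered pairs correlated weakly, at -0.05 to 0.14, and 5 pairs are too few to exclude a pairing. With the replicate block 2357 genes were called and no member's call changed (Dusp5 at 0.67, Dusp6 at 0.30).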
